A study of Gallus gallus with 9 samples.

Results

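EGK.X blastoderms were compared with chicken embryonic fibroblasts (CEFs) over every gene that carried a count, to describe how large the differences were, in which direction they ran, and how much of each library they took. An EGK.X blastoderm is the embryo of the freshly laid egg at Eyal-Giladi and Kochav stage X. Members were chosen as all Ensembl genes with at least 1 count in the 3 EGK.X blastoderm or the 3 CEF libraries, and 22165 of the 24356 genes listed met this. All 22698 genes with a count anywhere in the series were fitted together, so 533 fitted genes had no count in these 6 libraries. Both groups came from White Leghorn eggs and had no treatment. Each EGK.X replicate pooled 10 blastoderms, dissociated on collection and labelled as undifferentiated pluripotent cells. Each CEF replicate came from the bodies of 5 embryos at stage 28 of the Hamburger-Hamilton (HH) series, on embryonic day 6. Organs and limbs were taken off, and the cells were grown on a dish to passage 2. The label calls them differentiated somatic cells. Age, tissue, and culture therefore changed together between the groups, and their parts cannot be told apart. Another group of 3 libraries, primordial germ cells (PGCs) sorted with an SSEA-1 antibody from HH stage 28 gonads, is given as context.

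At laying, the chicken embryo is a disc of cells on the yolk that has not yet begun gastrulation, and its central cells can form all tissues of the body. Such cells are known for short cell cycles and for a network of transcription factors led by NANOG and the POU factor Pou5f3. Fibroblasts are mesenchymal cells that spread on a dish, secrete extracellular matrix and growth factors, and carry the receptors and kinases through which such factors act.

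Total counts on genes ranged from 43511523 to 64953799 in CEFs and from 60066862 to 67475925 in EGK.X blastoderms. A CEF library had a count for 17777 to 19245 genes and an EGK.X library for 19854 to 20109. Values below are CPM (counts scaled to a common library size) after TMM scaling, here called normalized CPM. TMM is a factor that aligns libraries on genes of middling change. It was 0.739 to 0.771 in CEFs and 1.03 to 1.13 in EGK.X blastoderms. EGK.X replicate 3 stood apart from the others. Over 12577 genes, 1.51% differed more than 2-fold between EGK.X replicates 1 and 2, but 13.2% and 13.9% did so between either of these and replicate 3. Among CEFs the same share was 5.92% to 9.28%.

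Only 154 genes could be named, those for which a table of the study pairs a symbol with an Ensembl identifier, and 153 of them were fitted. Among them, NANOG, Pou5f3, and SOX2 served to check the blastoderm label. NANOG, a homeodomain factor of the pluripotent network (chromosome 1, 75593243 to 75596024, GRCg6a), had 683, 671, and 567 normalized CPM in EGK.X replicates 1 to 3. In the CEFs it had 2 counts in replicate 1 and none in the others. Pooled over each group, NANOG was 39815-fold higher in EGK.X blastoderms, with a 95% exact counting interval of 11022 to 328770. Pou5f3 (chromosome 17, 823420 to 837030) had 446, 594, and 620 normalized CPM in EGK.X blastoderms and 9.14, 8.11, and 10.5 in CEFs, a log2 fold change of 5.90 ± 0.20 (standard error). The neural and pluripotency factor SOX2 was low in both, at 1.53, 1.93, and 5.95 in EGK.X blastoderms against 0.140, 0.0622, and 0 in CEFs, a log2 fold change of 5.42 ± 0.77. For each of the 3 genes every EGK.X library lay above every CEF library, and edgeR's adjusted p was 5.06e-11, 4.39e-10, and 5.98e-05. Every EGK.X library also lay above every CEF library for 31.6% of all genes fitted. No fibroblast marker could be checked by name.

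Differences of more than 2-fold covered nearly as many genes in one direction as in the other. A gene was called when edgeR's quasi-likelihood test gave an adjusted p under 0.05, over all genes fitted, and the log2 fold change went beyond 1. By this rule 5245 genes were higher in EGK.X blastoderms (23.1% of those fitted) and 4896 were lower (21.6%), together 10141 genes (44.7%). Of the calls, 51.7% were therefore higher. This split rests on the scaling: with library size alone and no TMM factor, 7256 genes were higher and 3670 lower, so that 66.4% of the calls were higher. Over all genes, the median log2 fold change was 0.09 with TMM and 0.59 with library size alone, a shift of 0.50. Upper-quartile scaling shifted it by 0.18 and gave 5892 higher and 4426 lower.

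**Figure D1:**
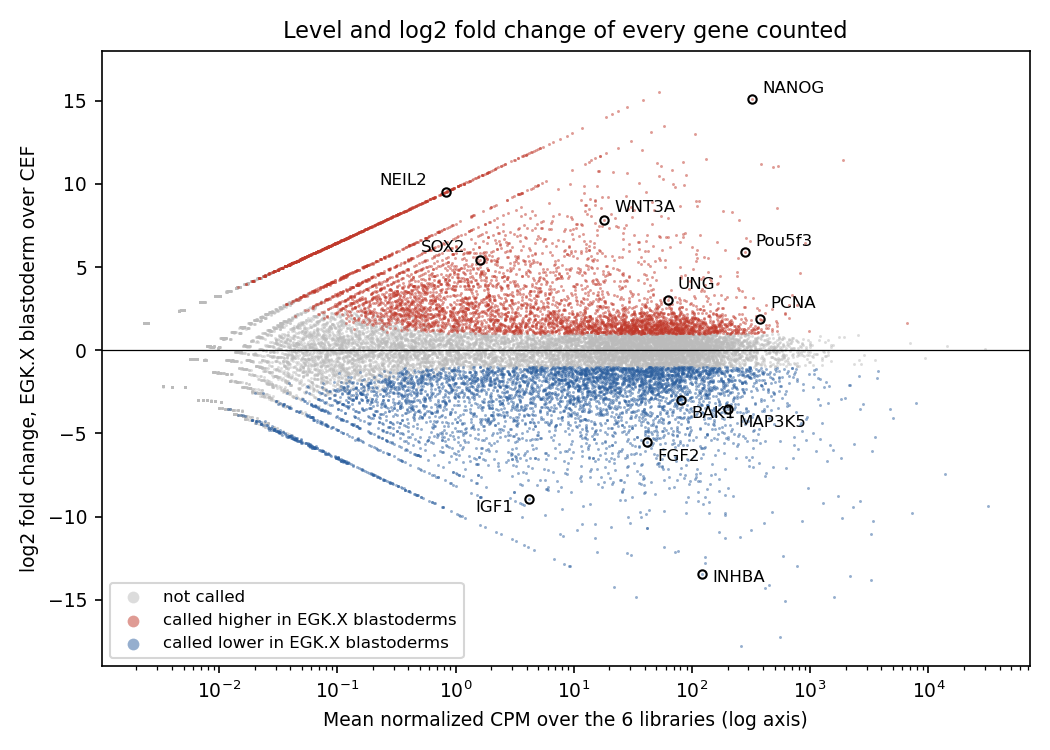
Each point is 1 gene, with its mean normalized CPM over the 3 CEF and 3 EGK.X blastoderm libraries on a log x axis and its fitted log2 fold change, EGK.X blastoderm over CEF, on the y axis. Red points are the 5245 genes called higher, blue points the 4896 called lower, and grey points those not called; named genes are circled, from NANOG at 15.10 to INHBA at -13.44, and straight rows of points at low level are genes with few or no counts in one group.

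For nearly all calls the groups did not overlap. In 9711 of the 10141 called genes (95.8%) every library of one group lay above every library of the other, and in 430 they overlapped. The genes were called on these same libraries, so this separation in part restates the calls and is a description. Over all genes fitted, every EGK.X library lay above every CEF library for 31.6% and below for 27.8%. A further 2796 genes passed the adjusted p but stayed within the 2-fold limits, and 9761 did not pass it. In bulk RNA, fewer cells that express a gene and less of its RNA per cell cannot be told apart.

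Among the calls, sizes were also alike in both directions near the limit and, in the fit used here, drew apart at the far end. The median log2 fold change was 2.76 for genes called higher and -2.62 for genes called lower, and the median size over all genes fitted was 1.39. Beyond 2 on the log2 scale (4-fold) there were 3413 genes higher and 3194 lower. Beyond 3 the counts were 2430 and 2079. Beyond 5 (32-fold) they were 1258 and 868, which is 5.54% and 3.82% of all genes fitted. Beyond 10 they were 104 and 57. The counts beyond 5 depend on the prior count, a small number that the fit adds to every library. With a prior count of 2 in place of edgeR's default, 539 genes were higher and 524 lower by more than 5. At that setting both directions were nearly alike there as well.

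**Figure D2:**
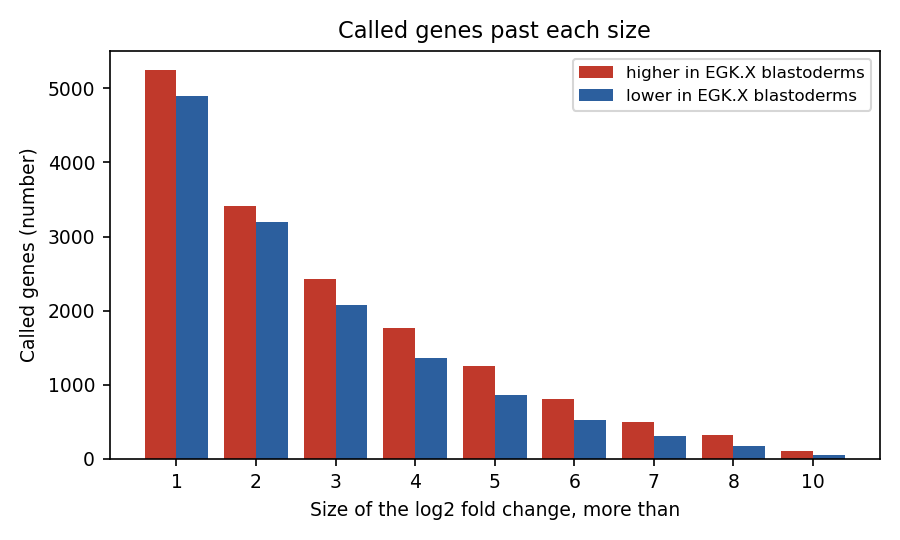
Bars give the number of called genes whose log2 fold change exceeds each size on the x axis, red for genes higher and blue for genes lower in EGK.X blastoderms than in CEFs. Red bars stand above blue ones at each size, from 5245 against 4896 beyond 1 to 104 against 57 beyond 10. The counts are those at edgeR's default prior count, on which the large sizes depend.

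The direction of the calls changed with the level of the gene. Classes were set on the mean normalized CPM over the 6 libraries. For a strongly changed gene this mean is set mostly by the group where the gene is high. Class and direction are therefore not independent. More genes reached 1000 CPM in CEFs than in EGK.X blastoderms, and the highest class in part restates that. Of 4459 genes with a mean of 0.1 to 1 CPM, 1585 were called higher and 990 lower, so 61.6% of the calls were higher. Between 1 and 10 CPM there were 1363 higher and 1199 lower of 4061 genes. From 10 to 100 CPM the order turned, with 1415 higher and 1743 lower of 6561. From 100 to 1000 CPM, 403 were higher and 624 lower of 2410. Of the 88 genes at 1000 CPM or more, 2 were called higher and 48 lower. Median log2 fold changes were 0.46 in the class from 0.1 to 1 CPM and -1.49 in the highest class. Below 0.1 CPM, where 15.0% of 5119 genes were called, the median standard error was 1.54 on the log2 scale, against 0.15 between 100 and 1000 CPM, so that only very large differences could pass there.

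**Figure D3:**
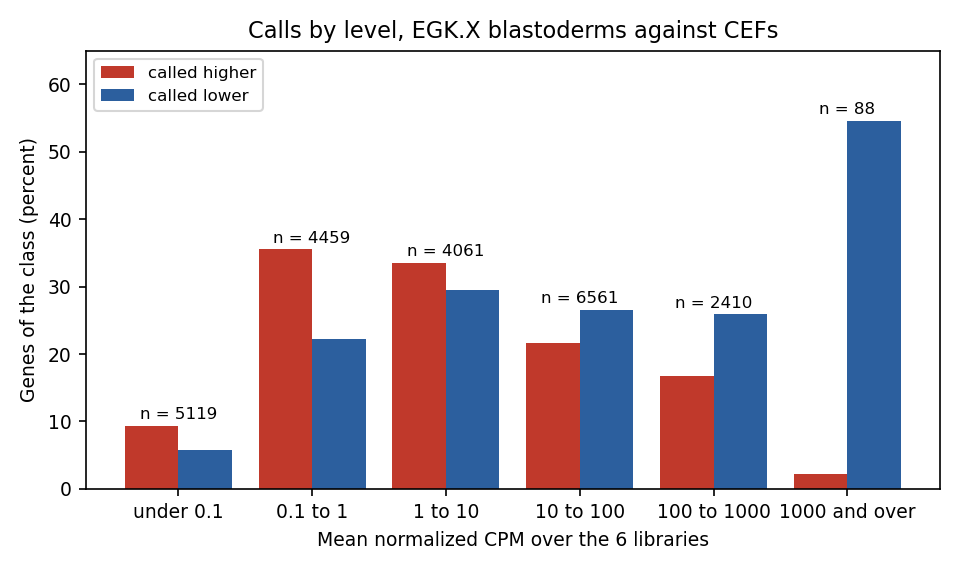
Bars give the percent of genes in each class of mean normalized CPM (x axis, 6 libraries) that were called higher (red) or lower (blue) in EGK.X blastoderms than in CEFs, with the number of genes in the class above. Red stands above blue up to 10 CPM and blue above red from there, and in the class of 88 genes at 1000 CPM and over there were 48 lower and 2 higher.

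Levels within the groups showed the same turn. Genes called higher had a median of 3.99 normalized CPM in EGK.X blastoderms and 0.349 in CEFs. Genes called lower had a median of 16.0 in CEFs and 1.88 in EGK.X blastoderms. In its higher group, 1643 of the 5245 genes called higher stayed under 1 CPM, as did 1039 of the 4896 called lower. At 100 CPM or more were 671 of the genes called higher and 1032 of those called lower. In PGCs the same genes had medians of 3.55 and 5.23 CPM. The PGC mean lay between those of the other groups for 2757 genes called higher and 2737 called lower.

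The genes called lower took a large part of the CEF libraries and a small part of the EGK.X libraries. They held 47.2%, 52.9%, and 51.8% of the counts in CEF replicates 1 to 3 and 9.60%, 10.2%, and 10.8% in EGK.X replicates 1 to 3. The genes called higher held 25.5%, 25.3%, and 26.1% of the counts in EGK.X blastoderms and 5.48%, 4.71%, and 4.87% in CEFs. These genes were called on the same libraries, so the shares are a description and carry no test. Genes not called held 63.1% to 64.9% of the counts in EGK.X blastoderms and 42.4% to 47.4% in CEFs. In PGCs the genes called higher held 17.4% to 17.8% and the genes called lower 19.4% to 19.7%. Counts were not divided by gene length, so a share of counts is not a share of transcripts.

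A small set of genes carried a large part of the share that the genes called lower had in CEFs. The 50 genes called lower with the highest mean CPM in CEFs held 19.5% to 23.9% of the CEF counts and 1.75% to 1.90% of the EGK.X counts. The matching 50 genes called higher held 5.36% to 5.66% of the EGK.X counts and 0.784% to 0.939% of the CEF counts. The largest folds behaved in the same unequal way. The 868 genes lower by more than 5 on the log2 scale held 17.1% to 22.1% of the CEF counts. The 1258 genes higher by more than 5 held 3.03% to 3.28% of the EGK.X counts. Within the genes called higher, most of the share gained in EGK.X blastoderms lay in modest rises. The 1832 genes called higher by no more than 2 on the log2 scale held 15.8% to 16.3% of the counts there. In CEFs these genes held 4.08% to 4.71%. Genes not called also held a larger share in EGK.X blastoderms than in CEFs, as given above.

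On the scale of normalized CPM, fewer genes carried the summed fall than the summed rise. Summed over genes, the mean CPM was 654681 lower in EGK.X blastoderms at 10365 genes and 264361 higher at 11800 genes. It took 100 genes to hold 50% of the summed fall and 482 genes to hold 50% of the summed rise. A drop of 1000 CPM or more was seen at 74 genes and a gain of that size at 13. Normalized CPM does not add up to the same total in every library, since TMM rescales it. The excess of the summed fall over the summed rise is therefore set by the TMM factors, which were lower in CEFs. With library size alone the 2 sums would be equal. The numbers of genes past 1000 CPM rest on the same factors.

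By share of counts, which TMM does not change, the CEF libraries were the more concentrated. In CEFs, 408 to 473 genes held 50% of the counts, and in EGK.X blastoderms 807 to 946, so the groups did not overlap. The 50 most abundant genes of each library held 25.2% to 28.3% of the counts in CEFs and 15.0% to 16.2% in EGK.X blastoderms. The 10 most abundant held 14.4% to 15.8% and 8.92% to 9.97%, and the 500 most abundant 50.9% to 53.0% and 38.1% to 41.4%. By this measure PGCs, where 927 to 1010 genes held 50% of the counts, were close to EGK.X blastoderms. A level of 1000 normalized CPM was reached by 124 to 135 genes in CEFs and 43 to 68 in EGK.X blastoderms. For 10 normalized CPM the numbers were 8695 to 8761 and 8156 to 8373. TMM raises these values in CEFs and lowers them in EGK.X blastoderms, and the numbers were not redone with library size alone.

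**Figure D4:**
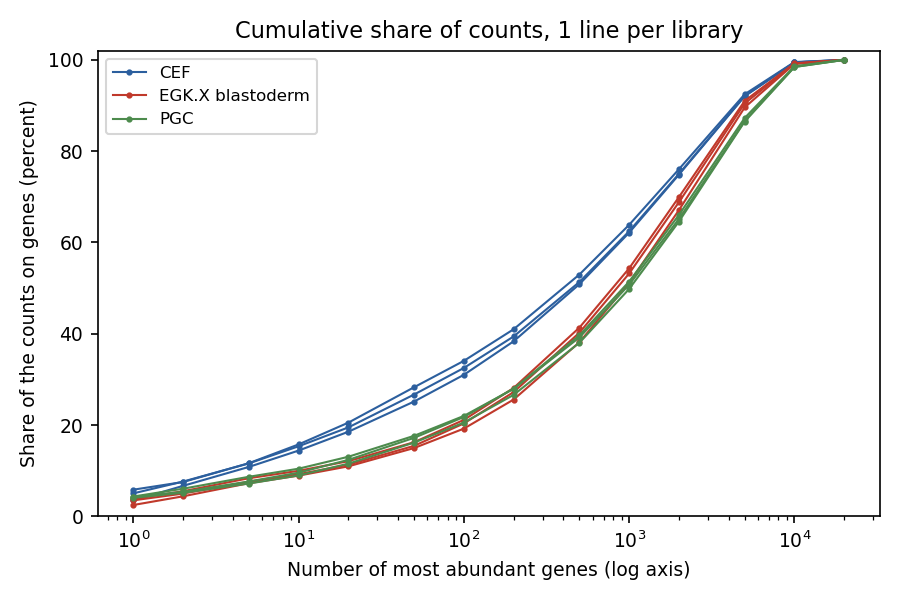
Each line is 1 library and gives the percent of its counts on genes (y axis) held by its most abundant genes, from 1 gene upward on a log x axis; blue lines are CEFs, red lines EGK.X blastoderms, and green lines PGCs. The 3 CEF lines stand above the others in the middle range, with 25.2% to 28.3% of the counts in 50 genes against 15.0% to 16.2% in EGK.X blastoderms.

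Most of the abundant genes of CEFs were lower in EGK.X blastoderms, whereas most of the abundant genes of EGK.X blastoderms were not called. Of the 50 genes with the highest mean CPM in CEFs, 40 were called lower, 1 higher, and 9 not called, with a median log2 fold change of -3.52. Of the 50 with the highest mean CPM in EGK.X blastoderms, 11 were called higher, 4 lower, and 35 not called, with a median of 0.30. The 2 sets shared 14 genes. Over all genes fitted, 23.1% were called higher and 21.6% lower, so the 11 called higher were near the share of all genes. Each set was picked by the level in its own group, which favors calls toward that group. The counts are therefore a description.

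Single genes showed the extremes of these levels, but have no name here. ENSGALG00000003578, the called gene with the most counts in CEFs, had 45181, 78971, and 65701 normalized CPM there, which was 3.48% to 5.84% of a library, and 107, 126, and 59.5 in EGK.X blastoderms. Its log2 fold change was -9.35 ± 0.36 (adjusted p = 9.91e-10, edgeR), and it had 811 to 939 CPM in PGCs. ENSGALG00000006512, the called gene with the most counts in EGK.X blastoderms, moved far less. It had 9484, 9091, and 11430 CPM there and 3435, 3063, and 3185 in CEFs, a log2 fold change of 1.63 ± 0.13 (adjusted p = 3.93e-07, edgeR).

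The largest folds were between presence and absence. ENSGALG00000030096 had 676, 343, and 536 normalized CPM in CEFs and no count in EGK.X blastoderms, and was therefore at least 37277-fold lower there. In PGCs it had 2 to 5 counts. ENSGALG00000033439 had 120, 131, and 66.1 CPM in EGK.X blastoderms and no count in CEFs, and was at least 4391-fold higher. It had 19.2 to 26.2 CPM in PGCs. Both bounds set the empty group at 3 counts over its 3 libraries, the limit that a count of 0 allows, and cover counting error only.

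Genes counted in one group and at the floor of the other were more often genes of the EGK.X blastoderm. There were 822 genes with at least 10 counts in every EGK.X library and no more than 3 in any CEF library, 324 of them without any CEF count. The reverse held for 220 genes, 62 of them without any EGK.X count. With 100 counts required, the numbers were 187 and 38, and with 1000 they were 34 and 9. After all 6 libraries were thinned to 43511523 counts there were 778 and 251. Thinned instead to the smallest effective size, the total count times the TMM factor, there were 610 and 339, so the excess was smaller once depth for ordinary genes was matched. This second thinning was chosen after the data were seen. Most of these genes were low, with a median of 0.760 CPM over the EGK.X libraries and 1.08 over the CEF libraries. They reached 640 and 1122 CPM at the top.

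PGCs shared more of the first set than of the second. Of the 822 genes, 394 had at least 10 counts in every PGC library, 153 were at the floor of 3 in all of them, and 275 lay between. Of the 220 genes found in CEFs, 35 had at least 10 counts in every PGC library, 97 were at the floor, and 88 lay between. PGC replicate 2 had 29512715 counts, the fewest in the series, so that the minimum was harder to reach there.

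The named genes came from lists for DNA repair, apoptosis, and pluripotency regulation, so they are landmarks among all genes and not a sample of them. Of the 153 fitted, 43 were called higher and 24 lower, or 43.8%, against 44.7% of all genes. Their median log2 fold change was 0.48, against 0.09. The 106 repair genes held 31 of the rises and 6 of the falls, with a median of 0.58. The 22 apoptosis genes held 4 rises and 10 falls, with a median of -0.49. The 25 pluripotency genes held 8 rises and 8 falls. The pluripotency genes had the widest spread, with a median size of 1.75 against 1.39 over all genes and 0.75 over the repair genes. These comparisons with all genes, here and below, are not matched for level. The named genes had a median of 44.4 normalized CPM over the 6 libraries, against 2.79 over all genes. Among all genes of 10 to 100 CPM, the median size was 0.96 and 48.1% were called. Each gene below that is said to have risen or fallen was called.

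**Figure D5:**
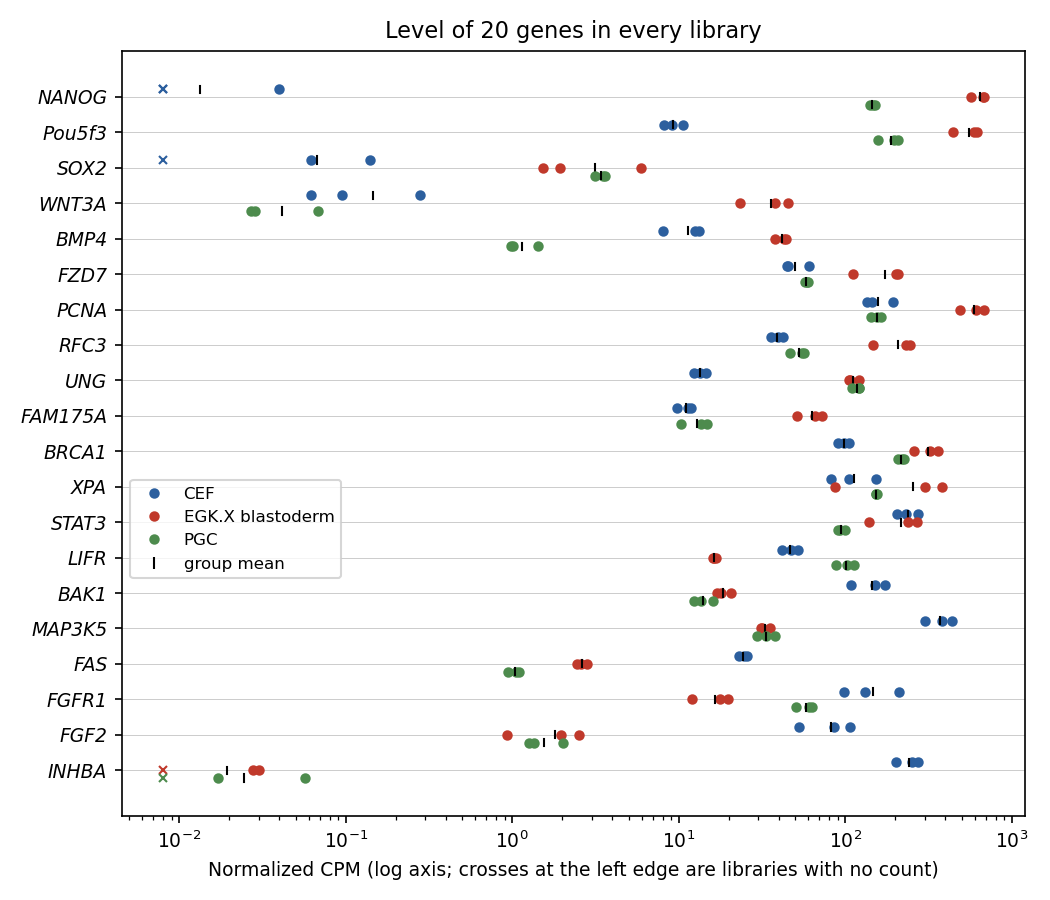
Points give the normalized CPM of 20 named genes (rows) in every library on a log x axis, blue for CEFs, red for EGK.X blastoderms, and green for PGCs; short black bars mark the mean of 3 libraries, and crosses at the left edge mark libraries without a count. From NANOG to BRCA1 the red points lie to the right of the blue ones, from LIFR to INHBA to the left, and XPA and STAT3, where EGK.X replicate 3 lies apart, overlap.

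Secreted factors gave some of the largest differences, in both directions. WNT3A, a ligand of the canonical Wnt pathway, had 45.6, 38.1, and 23.5 normalized CPM in EGK.X blastoderms and 0.279, 0.0622, and 0.0952 in CEFs. Its log2 fold change was 7.82 ± 0.48 (adjusted p = 4.01e-08, edgeR), and PGCs had 0.0270 to 0.0684. BMP4, a bone morphogenetic protein that patterns the early embryo, had 37.8, 43.1, and 44.4 against 8.07, 13.3, and 12.6, a log2 fold change of 1.89 ± 0.23 (adjusted p = 1.63e-05, edgeR). Both ligands were higher in every EGK.X library than in any CEF library, as were 31.6% of all genes fitted. INHBA, which encodes the subunit of activin A, ran the other way. It had 272, 201, and 251 CPM in CEFs, whereas EGK.X replicates 1 to 3 had 2, 2, and 0 counts. Its log2 fold change was -13.44 ± 0.41 (adjusted p = 2.07e-10, edgeR). With so few counts in EGK.X blastoderms, this size and its standard error are rough. Only 0.0485% of all genes had so low a log2 fold change. FGF2, a fibroblast growth factor, had 85.7, 52.8, and 107 in CEFs and 1.97, 2.51, and 0.925 in EGK.X blastoderms, a log2 fold change of -5.50 ± 0.40 (adjusted p = 1.91e-07, edgeR). IGF1, the growth factor that acts through IGF1R, had 434, 464, and 85 counts in CEFs and 0, 0, and 3 in EGK.X blastoderms. Pooled, it was 544-fold higher in CEFs, with a 95% exact counting interval of 186 to 2641.

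Of the receptors and signaling genes of the list, 1 receptor was higher in EGK.X blastoderms and several genes were lower, and others were not called. FZD7, a Frizzled receptor for Wnt ligands, had 207, 201, and 112 normalized CPM in EGK.X blastoderms and 44.7, 45.2, and 60.6 in CEFs, a log2 fold change of 1.79 ± 0.22 (adjusted p = 1.69e-05, edgeR). DVL1, a Dishevelled protein that acts below Frizzled receptors, had 11.7, 15.3, and 9.65 against 74.5, 73.0, and 55.1 in CEFs, and fell by 2.47 on the log2 scale. FGFR1, a receptor for fibroblast growth factors, had 12.1, 19.8, and 17.7 against 98.0, 131, and 212, and fell by 3.15. IGF1R, the receptor for IGF1, had 73.7, 77.7, and 87.4 against 267, 279, and 314, and fell by 1.85. For these 3 genes the groups did not overlap, as for 95.8% of all called genes, and edgeR's adjusted p was at most 1.02e-06. LIFR, a receptor of the LIF cytokine, had 16.1, 16.7, and 16.2 against 41.4, 51.9, and 47.1, and fell by 1.52. Its PGC levels, 88.1 to 113, were above both. The other receptors of the list, ACVR1C and BMPR1A, were not called. MAPK3, a kinase of the ERK pathway, had 139, 134, and 117 against 245, 288, and 269, a fall of 1.04 that lay at the limit. It was -0.99 without CEF replicate 2 and -0.97 without EGK.X replicate 3, and no longer called. With library size alone it was -0.54, and with upper-quartile scaling -0.86, again not called.

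MYC and KLF4, other nuclear factors of the pluripotency list, rose by less than NANOG, and BMI1, KAT6A, SMAD1, and STAT3 were not called. MYC, a growth factor-induced transcription factor, had 179, 239, and 396 normalized CPM in EGK.X blastoderms, 70.6, 94.1, and 76.8 in CEFs, and 15.0 to 18.3 in PGCs. Its log2 fold change between EGK.X blastoderms and CEFs was 1.75 ± 0.25 (adjusted p = 5.53e-05, edgeR). KLF4, a zinc finger factor, had 5.67, 7.70, and 8.02 against 2.62, 2.52, and 2.47, a log2 fold change of 1.49 ± 0.26 (adjusted p = 2.89e-04, edgeR). JAK1, a kinase that cytokine receptors bind, had 459, 439, and 343 against 631, 624, and 537. It passed the adjusted p (0.00443, edgeR) but not the fold limit, with a log2 fold change of -0.53 ± 0.13. STAT3, a factor that such kinases activate, had 237, 271, and 139 against 205, 273, and 233 (adjusted p = 0.609, edgeR), and the groups overlapped.

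Several genes of the replication fork were higher in EGK.X blastoderms, POLE4 was lower, and LIG1, POLE, POLE2, and POLE3 were not called. PCNA, the sliding clamp of DNA polymerases, had 679, 612, and 487 normalized CPM in EGK.X blastoderms and 194, 144, and 136 in CEFs, a log2 fold change of 1.91 ± 0.17 (adjusted p = 1.07e-06, edgeR). RFC3, a subunit of the clamp loader, had 245, 231, and 147 against 42.0, 39.5, and 36.0, a log2 fold change of 2.41 ± 0.19 (adjusted p = 4.13e-07, edgeR). The loader subunits RFC1 and RFC2 rose by 1.50 and 1.76 on the log2 scale. The single-strand binding subunits listed as RPA4 / RPA2 and RPA3 rose by 1.77 and 1.73. The flap nuclease FEN1 and the polymerase delta subunits POLD3 and POLD2 rose by 1.40, 1.42, and 1.21. In all of these the groups did not overlap, which held for 95.8% of all called genes. PGC levels of PCNA, 143 to 165, lay within those of CEFs. POLD2 fell to a log2 fold change of 0.95, within the fold limit, without EGK.X replicate 3. The polymerase epsilon subunit POLE4 had 2.35, 2.81, and 2.00 in EGK.X blastoderms, 5.83, 5.47, and 5.81 in CEFs, with a log2 fold change of -1.26 ± 0.24. It was -0.75, and not called, with library size alone.

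Of 26 base excision repair genes fitted, 7 were called higher and 2 lower, 34.6% against 44.7% of all genes. Of the enzymes that start this repair by removing a base, 4 were called higher, and MPG, MUTYH, SMUG1, TDG, MBD4, and NEIL1 were not called. NEIL2, a glycosylase for oxidized bases, had 1.61, 1.50, and 1.91 normalized CPM in EGK.X blastoderms and no count in CEFs, and was at least 69.1-fold higher. PGCs had 0 to 0.0513. UNG, which removes uracil from DNA, had 120, 107, and 105 against 13.5, 12.4, and 14.6, a log2 fold change of 3.04 ± 0.14 (adjusted p = 3.22e-09, edgeR). In PGCs it was as high, at 110 to 122. NTHL1, another glycosylase for oxidized bases, had 27.9, 24.7, and 28.2 against 11.0, 8.17, and 8.61, and rose by 1.54. NEIL3 rose by 1.45, from 1.82, 1.21, and 1.67 to 3.26, 2.90, and 6.71. Its largest value was that of EGK.X replicate 3, and it was within the fold limit, at 0.97, without that library. PARP3, a poly-ADP-ribose polymerase active at strand breaks, ran against this, with 0.803, 1.44, and 1.12 against 9.98, 11.7, and 15.8 and a log2 fold change of -3.48 ± 0.30.

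Of 19 mismatch repair genes 12 were called higher and none lower, and of 39 homologous recombination genes 14 were higher and 2 lower. Together these calls were 63.2% and 41.0% of their lists, against 44.7% of all genes, and several genes of the fork stand in both. MSH6, a subunit of a complex that recognizes mismatches, had 232, 221, and 409 normalized CPM in EGK.X blastoderms and 129, 112, and 110 in CEFs, and rose by 1.30. The exonuclease EXO1 rose by 1.49. BRCA1, a scaffold of break repair, had 321, 260, and 361 against 105, 98.7, and 90.0, a log2 fold change of 1.68 ± 0.14 (adjusted p = 6.39e-07, edgeR). BRCA2, a mediator of recombination, rose by 1.65, the helicase BLM by 1.54, and RAD54L, a motor protein of strand exchange, by 1.69. FAM175A, a scaffold of a BRCA1 complex, rose most in the recombination list, with 72.8, 66.0, and 51.7 against 11.4, 11.8, and 9.73 and a log2 fold change of 2.53 ± 0.20. For each of these 7 genes the groups did not overlap, as for 95.8% of all called genes. MSH6 was within the fold limit, at 0.96, without EGK.X replicate 3. ATM, the kinase that signals double-strand breaks, had 43.5, 42.2, and 67.4 against 119, 109, and 127, and fell by 1.21, but with library size alone it had -0.69 and was not called. The meiotic recombinase DMC1 had 37 counts over the EGK.X libraries and 62 over the CEF libraries. Its fall of 1.40 had overlapping groups and an adjusted p of 0.0438 (edgeR), which was 0.0947 to 0.132 without CEF replicate 1 or 3 or EGK.X replicate 2 or 3. It was 0.0527 with the replicate number as a block, 0.0967 in a fit of the 6 libraries, and 0.169 with library size alone.

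Of 10 end-joining genes 2 were called higher and 1 lower, and of 38 nucleotide excision repair genes 10 were higher and 2 lower. These were 30.0% and 31.6% of their lists, under the 44.7% of all genes. Genes of the fork described above, PCNA and RFC3 among them, stand in the nucleotide excision list too and are counted again there. LIG4, the ligase of end joining, had 49.4, 45.1, and 36.2 normalized CPM in EGK.X blastoderms and 16.8, 19.2, and 14.7 in CEFs, and rose by 1.37. DNTT, a polymerase that adds untemplated bases, rose by 3.83 ± 0.58 at low levels, 1.52, 1.18, and 0.808 against 0.120, 0.0932, and 0.0238. NHEJ1, a factor that aligns the ends, had 0.273, 0.457, and 1.04 against 1.34, 1.71, and 2.09, and fell by 1.53. With library size alone NHEJ1 was not called (adjusted p = 0.0756, edgeR). GTF2H2, a subunit of the factor TFIIH, had 87.6, 83.8, and 78.4 against 32.9, 37.5, and 29.0, and rose by 1.33. The incision nuclease ERCC5 had 26.1, 21.4, and 31.1 against 67.5, 50.7, and 69.4, and fell by 1.26. With library size alone ERCC5 had -0.75 and was not called. XPA, which binds the damaged strand, had 300, 380, and 87.1 against 105, 153, and 81.6. Its groups overlapped at EGK.X replicate 3, and its log2 fold change of 1.18 ± 0.40 (adjusted p = 0.0233, edgeR) was no longer called when EGK.X replicate 1 or 2 or CEF replicate 1 or 3 was left out (0.79 to 1.13, adjusted p = 0.0672 to 0.122).

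The death receptors FAS, TNFRSF10B, and TNFRSF1A and the adaptor TRADD were lower in EGK.X blastoderms. FAS had 2.82, 2.47, and 2.60 normalized CPM there and 25.7, 22.9, and 24.8 in CEFs, a log2 fold change of -3.22 ± 0.21 (adjusted p = 7.91e-08, edgeR). TNFRSF10B, a receptor of the TRAIL type, had 25.7, 26.3, and 37.2 against 89.3, 85.4, and 111, and fell by 1.68. TNFRSF1A, a receptor for tumor necrosis factor, had 26.5, 31.7, and 10.5 against 56.1, 65.6, and 73.4, and fell by 1.50. TRADD, an adaptor of that receptor, had 1.21, 1.55, and 0.925 against 9.76, 7.89, and 10.6, and fell by 2.93. None of the 4 genes overlapped between groups, as was so for 95.8% of all called genes. Their PGC levels were below those of CEFs, and for FAS below those of EGK.X blastoderms as well. Another adaptor, FADD, and CASP8, which act next in this route, were not called.

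Genes of the BCL2 family split by member, and BCL2L1 and BCL2L11 were not called. The initiator caspases CASP10 and CASP9 fell by 1.61 and 1.15 on the log2 scale, but CASP9 was not called with library size alone (-0.64) or upper-quartile scaling (-0.96). BAK1, which permeabilizes mitochondria, had 16.9, 17.9, and 20.7 normalized CPM in EGK.X blastoderms and 174, 108, and 150 in CEFs, a log2 fold change of -2.96 ± 0.20 (adjusted p = 8.41e-08, edgeR). The survival factor BCL2 had 3.21, 4.71, and 2.07 against 13.7, 13.7, and 17.3, and fell by 2.16. Genes that promote and genes that restrain cell death were thus both among the falls. BID, which links death receptors to mitochondria, had 79.7, 70.7, and 70.0 against 35.7, 35.8, and 33.7, and rose by 1.07. PMAIP1, a BH3-only gene, rose by 2.34 ± 0.53 at low levels, 0.909, 1.32, and 1.79 against 0.0998, 0.218, and 0.476. The stress kinase MAP3K5 had the largest fall of the apoptosis list, from 380, 302, and 436 in CEFs to 31.8, 35.4, and 31.1, a log2 fold change of -3.51 ± 0.17 (adjusted p = 5.71e-09, edgeR). Of the JNK kinases below it, MAPK8 rose by 1.27, from 27.6, 27.5, and 30.0 to 73.8, 68.4, and 62.4. MAPK10 fell by 3.46, from 4.65, 2.21, and 4.28 to 0.364, 0.540, and 0.103, and MAPK9 was not called.

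Some well-counted genes stayed within the fold limits. DDB1, which recognizes damaged DNA, had 326, 319, and 307 normalized CPM in EGK.X blastoderms and 332, 290, and 317 in CEFs, a log2 fold change of 0.02 ± 0.11 (adjusted p = 0.905, edgeR). The chromatin protein HMGB1 had 380, 323, and 340 against 441, 327, and 309 (log2 fold change -0.05 ± 0.15), and CYCS, cytochrome c, 247, 232, and 229 against 311, 206, and 211 (-0.04 ± 0.17). PARP1, a sensor of strand breaks, had 482, 473, and 366 against 387, 319, and 357 (0.31 ± 0.13, adjusted p = 0.0638, edgeR). The groups overlapped in all 4 genes. With library size alone HMGB1 and CYCS had log2 fold changes of 0.46 and 0.46, so the sign of these small differences depends on the scaling.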

How the data were processed

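RNA depleted of ribosomal RNA was sequenced in stranded libraries (TruSeq, Ribo-Zero Gold) on a NextSeq 500. Per the labels and methods, the authors trimmed reads with Trimmomatic 0.39, checked them with FastQC 0.11.9, aligned them to GRCg6a with HISAT2 2.2.0, converted files with SAMtools 1.10, and counted reads on Ensembl genes with HTSeq. The deposited counts are whole numbers without normalization. The version, strand setting, and overlap mode of counting are not given in the sources used here, so genes that overlap, antisense pairs included, are uncertain. The authors' normalized matrix was not used.

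The 5 summary entries of the counting stayed out of library sizes and tests. Over the 9 libraries, 26.6% to 36.2% of records lay outside genes, 3.40% to 6.38% had low alignment quality, 3.33% to 6.41% were not unique, and 0.491% to 0.943% were ambiguous. Counts were fitted with edgeR 4.0.16 in R 4.3.3 (TMM, prior count 0.125, quasi-likelihood test, Benjamini-Hochberg adjustment over 22698 genes) in 1 fit of all libraries, without a replicate block. The authors' test, the likelihood ratio test, was an alternative. Standard errors were taken from the log2 fold change and its F statistic (size over root of F), and are rough at low counts. The code was tested on simulated data. Thinning used seed 1. Against a group with no count, a fold is a bound at 3 counts over the group; with 1 to 3 counts it is a ratio with a 95% exact interval. Intervals and floors cover counting error only.

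Named were, in each direction, the 12 called genes with a symbol and the largest log2 fold change (each library of the higher group at 100 counts or more), the extremes of each list, the 5 with the highest mean CPM per group, the label checks, and 4 identifiers without a symbol. Other list members were named after their values were seen, and some members of the lists are not reported here. Gene names and coordinates came from a supplementary table of the study. The chicken reference table held none of the identifiers, so marker and pathway lists drawn up by symbol could not be used. The comparison, members, and lists were chosen with earlier results of these data known. The labels call the 3 libraries of a group biological replicates.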

Additional observations from a re-analysis of the deposited data

Results flagged for a closer look

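Records outside the gene counts differed between the groups. The share of records with no alignment was 9.46%, 10.1%, and 9.82% in EGK.X replicates 1 to 3 (median 9.82%) and 5.27%, 4.75%, and 4.50% in CEFs, and lay at 4.60% to 5.10% in PGCs. The share with a low alignment quality was 5.81%, 6.38%, and 6.20% in EGK.X blastoderms (median 6.20%), 4.18%, 3.62%, and 3.40% in CEFs, and 3.85% to 4.31% in PGCs. In both measures every EGK.X library lay above every CEF library. With 3 libraries against 3, an exact permutation test cannot go below 0.10, so no test was run. The part of these records in the gene counts was not tested.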

How the results depend on the processing

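Over 17 alternative fits the number of genes called higher ran from 3960 to 7256 and the number called lower from 3670 to 5281, and no alternative moved either count by more than 1.5 times. Counts beyond 5 on the log2 scale moved with the prior count: at 2 in place of the default there were 539 higher and 524 lower. With 100 counts required in place of 10, the genes at the floor of the other group were 187 in EGK.X blastoderms and 38 in CEFs, and at equal effective library size, an alternative added after seeing the data, 610 and 339. Without 1 library, calls ranged from 4900 to 5204 higher and 4560 to 4973 lower, those beyond 5 from 1193 to 1421 and 850 to 937, and genes at the floor of the other group from 877 to 1096 and 233 to 288. With the replicate number as a block there were 4945 higher and 4673 lower. Deviations of same-numbered libraries of the 2 groups correlated at 0.22, -0.02, and 0.10. EGK.X replicates 1 and 3 correlated best with the CEF library of the same number, and EGK.X replicate 2 with CEF replicate 1 (0.07). Whether same-numbered libraries share more than a number was not tested. Of 68 genes followed, 50 kept their direction and side of the threshold in every alternative. Signs reversed only for genes not called: STAT3 (0.37 with library size alone, 0.054 with upper-quartile scaling, -0.32 to 0.10 without 1 library), HMGB1 (0.46, 0.14, and -0.14 to 0.13), CYCS (0.46, 0.14, -0.14 to 0.18, and 0.0027 with DESeq2 1.42.0 or its size factors), and DDB1 (-0.012 where 10 counts were required in every library of a group, -0.032 to 0.065 without 1 library). With library size alone MAPK3, ATM, DMC1, NHEJ1, ERCC5, POLE4, and CASP9 were no longer called, and 14 genes were not called in a test against a log2 fold change of 1 (3960 higher and 3821 lower over all genes). The causes were not tested.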

Other observations

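The named genes on the Z chromosome stood apart in 1 CEF library, a pattern seen after the values were known. Over 10 Z-linked named genes with a mean of at least 1 normalized CPM in both groups, 9 had their highest CEF value in replicate 2, and the ratio of that replicate to the mean of the others had a median of 1.65 (0.989 to 1.80). Over 131 named genes on other chromosomes, 34 had their highest CEF value there, and the median ratio was 0.940 (0.432 to 2.27). Among the genes described above, XPA, GTF2H2, LIFR, and KLF4 are Z-linked and in this set. PMAIP1 is Z-linked too but below that level, and its ratio was 0.756. In EGK.X replicate 3, the ratio to the mean of the other EGK.X libraries was 0.951 in the median over the Z-linked genes and 1.01 over the others, with XPA at 0.256 and NEIL3 at 2.18. The part of these libraries in the Z-linked differences between the groups was not tested.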
